A study of Homo sapiens with 6 samples.

Results

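The synaptic vesicle and SNARE genes described here are 38 genes, taken by symbol from a table of read counts for 19610 genes. They encode the SNARE proteins that fuse vesicles with their target membrane, the proteins that assemble, hold back or take apart SNARE complexes, the calcium sensors of the synaptotagmin family, proteins of the vesicle itself, and proteins of the active zone and of vesicle recycling. All 38 symbols were found in the table. The rule for taking a gene was its symbol alone, but the list was drawn up with earlier results of these data known.

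The RNA came from SH-SY5Y, a human neuroblastoma line derived from sympathetic neuroblasts, labelled WT in every sample. In the DMSO group, 3 libraries (A, B and C) came from cells given the solvent. In the SGC707 group, 3 libraries (A, B and C) came from cells given SGC707, an allosteric inhibitor of the protein arginine methyltransferase PRMT3. The series set out to measure how the compound affects gene expression, with attention to MIR448, IGF1R and tau phosphorylation. Neither the dose nor the length of treatment is stated in the sources used here. No label states that the 3 libraries of a group came from separate cultures, so each p-value below reflects only how far these libraries differ among themselves, which may be technical. All libraries come from a single cell line, and in bulk RNA fewer cells of a type and less RNA per cell cannot be told apart.

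Neurotransmitter release depends on a vesicle SNARE, VAMP2, that zips up with the membrane SNAREs SNAP25 and syntaxin 1 and pulls a vesicle onto the plasma membrane. Complexins and the calcium sensor SYT1 hold and then trigger this step, RIM and UNC13 proteins prepare vesicles for it, and NSF with its SNAP adaptors pulls spent complexes apart for reuse. Close relatives such as SNAP23, VAMP3 and STX4 do the same work in most cell types, and SH-SY5Y cells, which carry dense-core vesicles, hold both sets.

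None of the 38 genes passed the test between SGC707 and DMSO. The members with the smallest p-values were VAMP2, SNAP25 and SYN1, with lower values in the SGC707 libraries, and SYPL1, the widely expressed relative of synaptophysin, with higher values. The upstream DNA of 3 of these genes is shown here because each stands among the 4 smallest p-values and has a promoter entry in RefSeq (GRCh38.p14), as 34 of the 38 genes do. SNAP25, CPLX1, SYT7 and SYN3 are the other 4 members. Each stretch is the longest part of the 250 bases before the first RefSeq start listed that lies outside every GENCODE 29 exon, read 5′ to 3′ on the minus strand, which carries all 3 genes. The SYN1 stretch is chrX:47619944-47620107 and lies directly upstream of the annotated gene. The VAMP2 stretch is chr17:8162976-8163126 and the SYPL1 stretch is chr7:106112332-106112478, and both lie between exons within the annotated bounds of their gene.
SYN1: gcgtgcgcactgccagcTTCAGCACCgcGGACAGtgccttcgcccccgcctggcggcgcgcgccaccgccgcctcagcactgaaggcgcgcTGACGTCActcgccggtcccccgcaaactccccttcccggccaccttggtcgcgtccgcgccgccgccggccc
VAMP2: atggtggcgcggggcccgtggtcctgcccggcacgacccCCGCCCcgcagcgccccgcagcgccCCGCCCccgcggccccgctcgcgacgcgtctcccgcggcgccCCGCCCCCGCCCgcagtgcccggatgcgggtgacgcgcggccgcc
SYPL1: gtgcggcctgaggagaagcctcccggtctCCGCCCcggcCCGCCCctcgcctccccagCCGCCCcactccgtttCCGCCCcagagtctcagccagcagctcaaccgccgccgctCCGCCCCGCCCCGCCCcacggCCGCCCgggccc

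Capitals mark letters that match a searched motif on either strand, and matches of the same motif may run into each other. The SYN1 stretch holds TTCAGCACC and GGACAG, the left and right parts of the RE1 element bound by the repressor REST, set 2 bases apart, and the cyclic AMP response element TGACGTCA. SYN1 was the only one of the 34 members with both RE1 parts at this spacing, an arrangement held by 5 of all 35116 promoters (0.014%) in 250 bases. It was also the only member with TGACGTCA, which 1.65% of all promoters hold. Capitals in VAMP2 and SYPL1 are the SP1 box GGGCGG read from the other strand. That box occurred in 25 of the 34 members (73.5%) and in 42.6% of all promoters, and the members' windows had a median GC content of 68.8% against 58.0%. The shares are not fully alike, because a member counts by its first entry and all promoters include every entry of a gene. Some windows, such as those of SV2A, STX3 and DNM1, lie inside the annotated gene and not at its outer end. The other motifs searched were GCATGCGC of NRF1 (STX1A and NAPA, 2.63% of all promoters), the E-box CACGTG (SNAP29, NAPA and UNC13A, 6.35%) and TATAAA (0 of 34 members, 10.7%). A match only describes the letters, and whether any factor bound there was not tested.

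The libraries held between 11658728 and 15437602 counts. Counts of the mitochondrial genome took 46.7% to 60.7% of the DMSO libraries and 24.3% to 37.7% of the SGC707 libraries, which left 6066305 to 6327895 nuclear counts in a DMSO library and 7559322 to 8999358 in an SGC707 library. The 38 genes took 0.302% to 0.310% of the nuclear counts in the DMSO libraries and 0.265% to 0.293% in the SGC707 libraries. Library SGC707 C stood apart from the other 5 by the GC content of its genes: Spearman's rho between a gene's deviation from the mean of all libraries and its GC content was -0.76 there and -0.12 to 0.52 elsewhere. Members' log2 fold changes that moved by over 1.5 times without SGC707 C are also given without it. The edgeR fit without SGC707 C called 9.26% of all tested genes at an adjusted p under 0.05. Adjusted p-values given without SGC707 C are to be read beside that share. By chi-square per degree of freedom on raw counts, mitochondrial included, SGC707 A and B were the most alike pair (11.9). Pairs within DMSO had 24.2 to 60.2. SGC707 C was nearer to DMSO C (45.4) than to SGC707 A (103.6) or B (80.6). Of 14 markers of adrenergic neuroblastoma, 13 had a mean of at least 1 CPM (counts scaled to a common library size), with STMN2 the highest, whereas TH, the first enzyme of catecholamine synthesis, was at 0 in all libraries. Their summed normalised level was 5801 to 7018 CPM in the DMSO libraries and 4873 to 5073 in the SGC707 libraries. Of the 13 tested, 12 had negative log2 fold changes, beside 5756 of all 12196 tested genes. SGC707 C stood apart in some of them. TUBB3 had 183 to 194 CPM with DMSO, 267 and 224 in SGC707 A and B, and 17.7 in C. STMN2 had 2206 to 2382.5 with DMSO, 1601.5 and 1780 in SGC707 A and B, and 2583 in C. The part of the difference in these markers in the values of the vesicle genes was not tested. The 9 mesenchymal markers summed to 206 to 234 CPM (DMSO) and 211 to 253 (SGC707), mostly TWIST1. Schwann-like, epithelial and blood cell markers each summed to at most 4.02 CPM, and SOX10, FOXD3, PTPRC, AIF1 and CSF1R were at 0 in all libraries.

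The cells expressed all 3 SNAREs of the neuronal fusion complex. On the per-length scale (CPM normalised by edgeR's TMM factors, divided by the length in kilobases of the longest protein-coding transcript), SNAP25 had the highest level in the DMSO libraries, 135 ± 22.2 (SD, n = 3). VAMP2 came next at 53.9 ± 14.4, then the synaptotagmins SYT11 (35.6 ± 3.51) and SYT1 (27.8 ± 1.77) and the growth cone protein GAP43 (26.4 ± 1.52). STX1A, the neuronal syntaxin, stood at 18.8 ± 2.27. At the lower end RIMS1, an active zone scaffold, reached 0.548 ± 0.0636, and SYN3 and AMPH were near 0. Of the 37 pairs of neighbours in this order, 31 had overlapping DMSO libraries. The 6 that did not were SNAP25 above VAMP2, SYT11 above SYT1, GAP43 above STX1A, RAB3B above RIMS1, RIMS1 above SYN3, and SYN3 above AMPH. The last of these pairs is at or near the level of 3 counts, the most that a count of 0 allows, which equals 0.181 to 0.293 normalised CPM depending on the library, so its order is not meaningful.

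**Figure D1:**
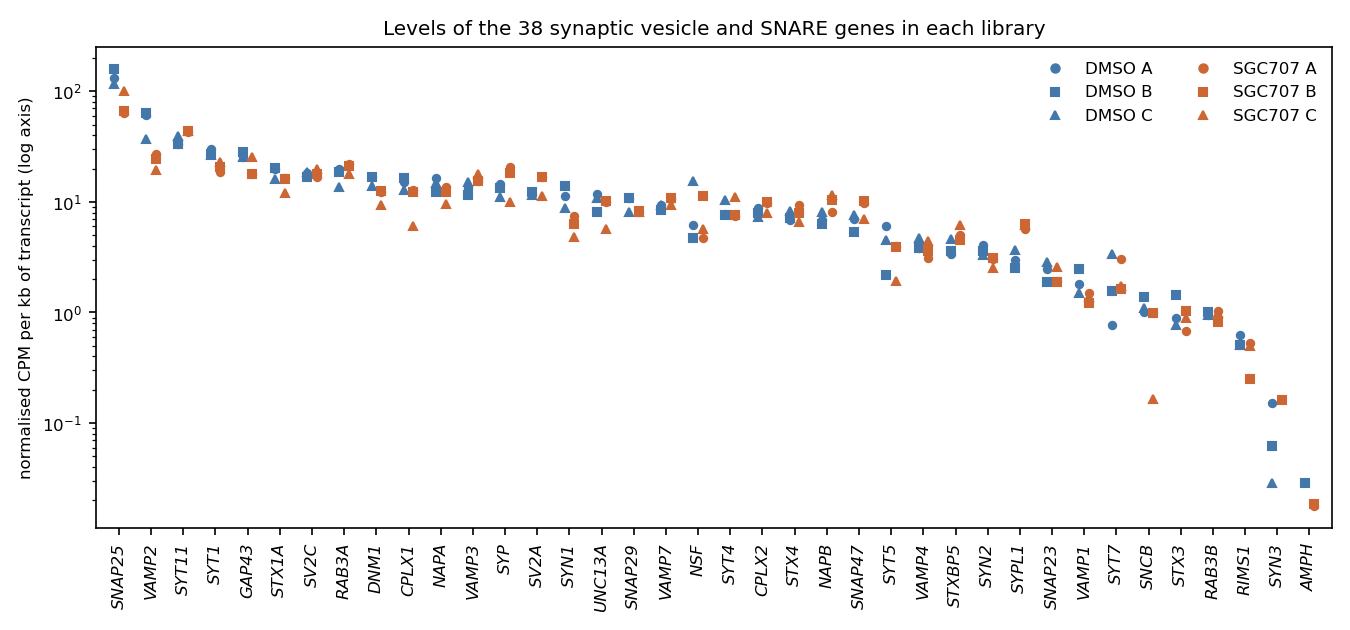
Level of each of the 38 genes in each library, as normalised CPM per kilobase of transcript on a log axis, ordered by the DMSO mean, with DMSO and SGC707 libraries in different colours. Libraries with 0 counts of SYN3 or AMPH are not drawn on the log axis, and SNAP25 lies above all other members at a DMSO mean of 135.

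The test was edgeR's quasi-likelihood test over the 12196 genes that passed its filter on low counts, with Benjamini-Hochberg adjustment over all of them. Of the 38 members, 36 passed the filter. SYN3, the least abundant synapsin, had 5, 2 and 1 counts in the DMSO libraries and 0, 8 and 0 in the SGC707 libraries. AMPH, which encodes the endocytic protein amphiphysin, had 0, 1 and 0 counts and then 1, 1 and 0. At this depth no difference was detectable for either gene.

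At an adjusted p under 0.05, 0 of the 36 tested members were called, beside 3 of 12196 genes (0.0246%) over the whole table, and the smallest adjusted p among the members was 0.178 (edgeR). At an unadjusted p under 0.05, 2 members had higher values in SGC707, SYPL1 and NAPB, where 5.62% of all tested genes did. At the same threshold 5 had lower values, VAMP2, SNAP25, SYN1, SYT1 and DNM1, where 7.13% of all genes did. All 3 SGC707 libraries lay above all 3 DMSO libraries for 5 members, SYPL1, NAPB, SYT11, VAMP3 and VAMP7, beside 10.8% of all genes. All 3 lay below for 9 members, VAMP2, SNAP25, SYN1, SYT1, DNM1, VAMP1, CPLX1, SYN2 and SNCB, beside 9.78%. The log2 fold change of SGC707 against DMSO was positive in 15 members and negative in 21, with a median of -0.21, whereas over all tested genes 6440 were positive and 5756 negative with a median of 0.02. The members' median was -0.05 without DMSO C, -0.10 without SGC707 A and -0.12 without SGC707 B. By library, the members' median deviation from their DMSO mean, on the log2 scale, was between -0.04 and 0.02 in the DMSO libraries, -0.08 in SGC707 A and in SGC707 B, and -0.13 in SGC707 C.

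**Figure D2:**
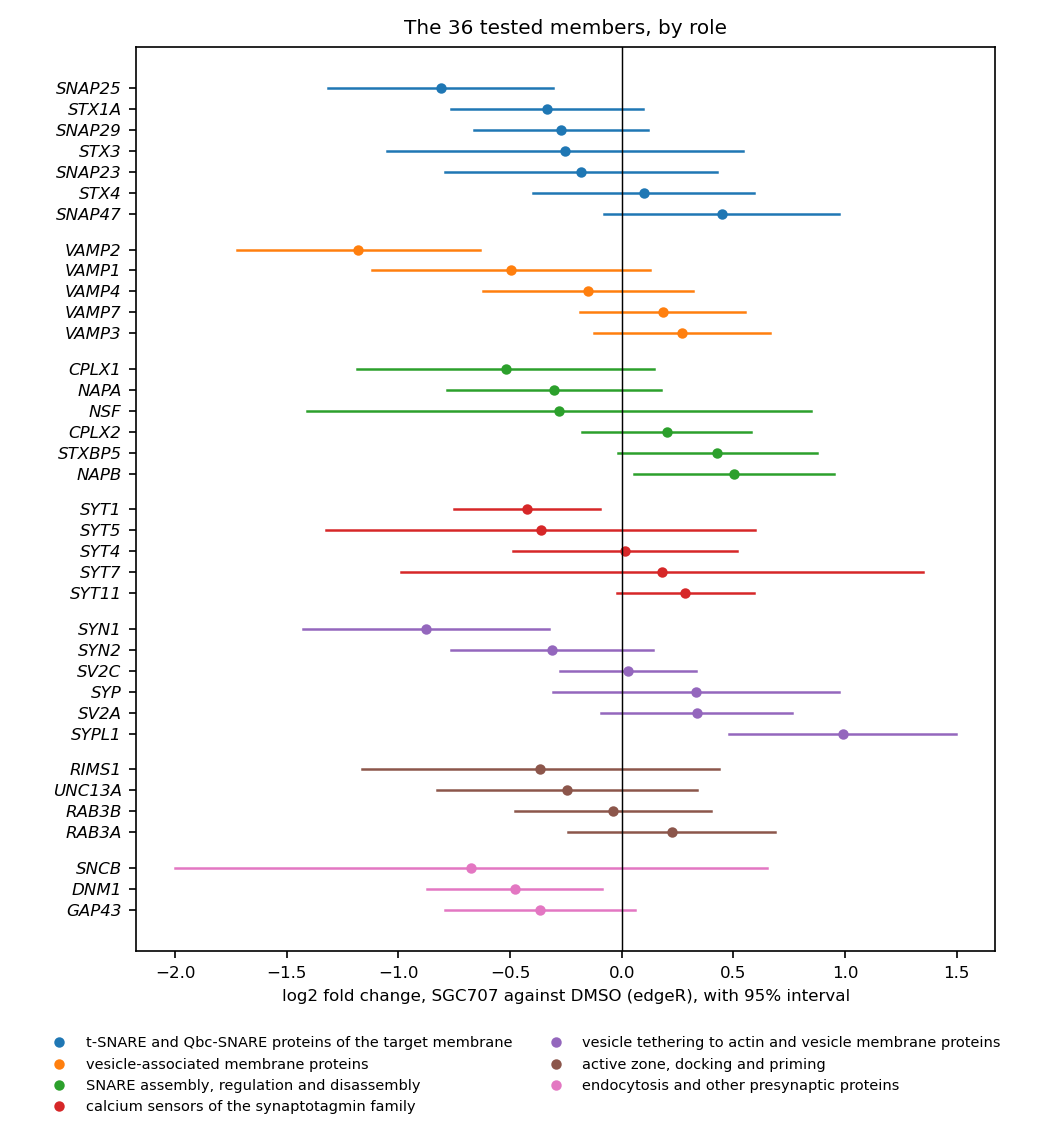
Log2 fold change of SGC707 against DMSO for the 36 tested members, grouped by role, with 95% confidence intervals from edgeR's fit on 3 libraries a group. The values run from -1.18 (VAMP2) to 0.99 (SYPL1), and no member has an adjusted p under 0.05.

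Among the SNAREs of the target membrane, 5 of 7 members had negative log2 fold changes (median -0.25) and none passed the test. SNAP25 (chr20:10218830-10307418, plus strand, GRCh38) encodes the SNARE that supplies a pair of helices to the neuronal fusion complex. In the order A, B and C its level was 269, 327 and 237 normalised CPM with DMSO, then 131, 137 and 207 with SGC707. All SGC707 libraries lay below all DMSO libraries, and SGC707 C lay much nearer to them than A and B did. This amounted to -0.81 on the log2 scale (SE 0.22, 95% interval -1.31 to -0.31, edgeR adjusted p = 0.249). Without SGC707 C it was -1.06 with an adjusted p of 0.0272 in edgeR.

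SNAP47 (chr1:227728539-227781231, plus strand), a widely expressed relative found largely on intracellular membranes, had 16.9, 12.7 and 18.2 normalised CPM in the DMSO libraries and 23.7, 24.5 and 16.9 in the SGC707 libraries. SGC707 A and B lay above the DMSO range, and SGC707 C lay within it. Its log2 fold change was 0.45 (SE 0.23, edgeR adjusted p = 0.466) and 0.59 without SGC707 C, and 2323 bases of its exons overlap JMJD4 on the opposite strand. Whether the counting used strand is not stated, so reads of the SNAP47 and JMJD4 transcripts may not be separable.

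The other 5 genes of this group differed by less. STX1A, the syntaxin of the presynaptic membrane, had a log2 fold change of -0.33 (-0.21 without SGC707 C), and its libraries overlapped. SNAP29, which acts on endosomal and autophagosomal membranes, stood at -0.27. STX3, a syntaxin of apical and ribbon synapse membranes, stood at -0.25, SNAP23, the general plasma membrane relative of SNAP25, at -0.18, and STX4, its common partner, at 0.10. When 1 library was left out, STX3 ran from -0.44 to 0.06, SNAP23 from -0.34 (without SGC707 C) to -0.04 (without DMSO C), and STX4 from -0.04 to 0.21 (without SGC707 C). The adjusted p-values of these 5 genes in edgeR, on all libraries, were all at least 0.502.

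The vesicle SNAREs held the member with the smallest p. VAMP2 (chr17:8159149-8163546, minus strand), or synaptobrevin, is the main vesicle SNARE of neurons, and its upstream stretch is shown above. Its DMSO libraries had 131, 137 and 80.4 normalised CPM and its SGC707 libraries 58.8, 52.6 and 42.1. Every SGC707 library lay below every DMSO library, with DMSO C the lowest of its group. The means were 116 ± 31.0 and 51.2 ± 8.43 (SD, n = 3), and the fitted difference on the log2 scale was -1.18 (SE 0.24, 95% interval -1.72 to -0.63, edgeR adjusted p = 0.178). An overlapping gene model on the same strand, AC129492.3, shares 430 exon bases with VAMP2, so its counts are uncertain.

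VAMP1 (chr12:6462237-6470987, minus strand), the second neuronal synaptobrevin, was far less abundant, with 6.20, 8.60 and 5.22 normalised CPM in the DMSO libraries and 5.19, 4.21 and 4.75 in the SGC707 libraries. The groups did not overlap, but DMSO C and SGC707 A nearly touched. The fitted log2 value was -0.50 (SE 0.27, edgeR adjusted p = 0.492), and -0.28 without DMSO B. The widely expressed vesicle SNAREs had smaller differences. VAMP3, or cellubrevin, of recycling endosomes stood at 0.27, VAMP7 of late endosomes and lysosomes at 0.18, and VAMP4 of the trans-Golgi network at -0.15. VAMP3 was 0.17 without DMSO B, and VAMP4 ran from -0.29 (without SGC707 C) to -0.03 (without SGC707 A). The libraries did not overlap for VAMP3 and VAMP7, by a small margin in both: DMSO C had 33.6 normalised CPM of VAMP3 and SGC707 B 33.8, and DMSO C had 24.7 of VAMP7 and SGC707 C 24.8.

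Among the 6 genes that assemble, hold back or take apart SNARE complexes, 3 values were positive and 3 negative (median -0.04). NAPB (chr20:23374519-23421519, minus strand), the brain-enriched SNAP adaptor that brings NSF to spent complexes, had 26.6, 24.3 and 31.1 normalised CPM in the DMSO libraries and 31.3, 40.3 and 44.9 in the SGC707 libraries. The groups were separate, with SGC707 A only just above DMSO C. Its log2 fold change was 0.50 (SE 0.19, 95% interval 0.06 to 0.95, edgeR adjusted p = 0.345). NAPA, the adaptor of all cells, stood at -0.30 (-0.17 without SGC707 C), and its libraries overlapped. NAPA shares 988 exon bases with NAPA-AS1 on the opposite strand and 752 with the gene model AC073548.1 on the same strand, so its counts and any ratio to them are uncertain.

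STXBP5 (chr6:147204425-147390476, plus strand), or tomosyn, occupies the membrane SNAREs in place of VAMP2 and so restrains release. It had 31.2, 32.7 and 42.6 normalised CPM in the DMSO libraries and 45.7, 41.6 and 56.1 in the SGC707 libraries. DMSO C lay above SGC707 B, so the groups overlapped, at a fitted value of 0.43 (log2, SE 0.19, edgeR adjusted p = 0.411). The complexins, small proteins that clamp and assist the assembled complex, pointed opposite ways, CPLX1 at -0.52 and CPLX2 at 0.20. For CPLX1 the SGC707 C library was the lowest, at 13.2 normalised CPM beside 27.9 and 26.5 in A and B, and without it the log2 fold change was -0.26.

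NSF, the ATPase that pulls SNARE complexes apart, was the least steady of the abundant members. It had 24.6, 19.0 and 60.9 normalised CPM in the DMSO libraries and 18.6, 44.7 and 22.6 in the SGC707 libraries. A single library in each group, DMSO C and SGC707 B, stood high. Its log2 fold change was -0.28 (SE 0.49, and -0.14 without SGC707 C), and its value turned to 0.39 without DMSO C. Its transcript shares 1471 bases at 99.9% identity with the pseudogene NSFP1, so its counts are uncertain.

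Of the 5 synaptotagmins, 3 values were positive and 2 negative (median 0.01). SYT1 (chr12:78863993-79452008, plus strand), the calcium sensor of fast synchronous release, had 143, 131 and 127 normalised CPM in the DMSO libraries and 89.2, 100.1 and 109.7 in the SGC707 libraries. The groups did not overlap, and the spread within each was small. Its log2 fold change was -0.42 (SE 0.14, 95% interval -0.75 to -0.10, edgeR adjusted p = 0.2997), and without SGC707 C it was -0.50 with an adjusted p of 0.0348.

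SYT11 (chr1:155859509-155885199, plus strand), a synaptotagmin that does not bind calcium, had 176, 176 and 208 normalised CPM in the DMSO libraries and 222, 229.5 and 231 in the SGC707 libraries. Every SGC707 library lay above every DMSO library, at a fitted value of 0.29 (log2, SE 0.13, edgeR adjusted p = 0.421). SYT1 and SYT11 therefore lay on opposite sides of 0 with separate groups, and neither passed the test. SYT4, another family member with weak calcium binding, stood at 0.01 (-0.19 without SGC707 C), SYT5 at -0.36 and SYT7, a slow calcium sensor of high affinity, at 0.18 (0.30 without SGC707 C). SYT7 ranged from 3.72 to 16.3 normalised CPM within the DMSO group alone, and its 95% interval ran from -0.99 to 1.35. SYT5 rested on single libraries: it stood at -0.02 without DMSO A, -0.10 without SGC707 C and -0.68 without DMSO B.

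Proteins that sit on the vesicle or tether it to actin pointed both ways, with 4 positive and 2 negative values among 6 tested genes (median 0.18). SYN1 (chrX:47571898-47619943, minus strand), synapsin I, holds vesicles in the reserve pool. It had 37.5, 46.1 and 28.97 normalised CPM in the DMSO libraries and 24.3, 20.9 and 15.9 in the SGC707 libraries. The groups did not overlap, and library C was the lowest of each. The fitted log2 value was -0.88 (SE 0.24, 95% interval -1.43 to -0.33, edgeR adjusted p = 0.256). SYN2, the second synapsin, stood at -0.31, also without overlap of the groups. SYN1 shares 297 exon bases with the gene model AL009172.2 on the same strand, so its counts are uncertain.

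SYPL1 (chr7:106090503-106112576, minus strand), or synaptophysin-like 1, a vesicle protein of most cell types, had the largest positive value of all members. Its level was 6.39, 5.37 and 7.92 normalised CPM in the DMSO libraries and 12.3, 13.4 and 13.4 in the SGC707 libraries. These rest on few raw counts, 67, 55 and 88 with DMSO and 203, 214 and 172 with SGC707. The groups were well apart and the SGC707 libraries lay close together. It stood at 0.99 on the log2 scale (SE 0.22, 95% interval 0.48 to 1.497, edgeR adjusted p = 0.202). SYP, synaptophysin itself, had 36.2, 33.4 and 27.5 normalised CPM in the DMSO libraries and 51.9, 45.6 and 24.8 in the SGC707 libraries. SGC707 A and B lay above the DMSO range and SGC707 C below it, at a log2 fold change of 0.33 (0.59 without SGC707 C).

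SV2A, a vesicle glycoprotein that binds the drug levetiracetam, showed the same arrangement of libraries. It had 51.6, 54.6 and 51.0 normalised CPM in the DMSO libraries and 73.7, 74.4 and 50.2 in the SGC707 libraries, at a fitted log2 value of 0.34 (edgeR adjusted p = 0.499). Without SGC707 C its value was 0.49 with an adjusted p of 0.0336 in edgeR. SV2C, its relative and an abundant member, stood at 0.03 (-0.04 without SGC707 C) with an interval from -0.28 to 0.33.

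The 4 genes of docking and priming had no p under 0.05 and overlapping libraries throughout, with a median of -0.14. RAB3A, the GTPase of synaptic vesicles, stood at 0.22 and its relative RAB3B at -0.04 (-0.08 without SGC707 C). RIMS1, the scaffold that ties RAB3 to calcium channels, stood at -0.37, from 1.76 to 4.38 normalised CPM over the 6 libraries. Without DMSO C, RAB3A stood at 0.07, and without SGC707 B, RIMS1 stood at -0.09. UNC13A, which opens syntaxin for SNARE assembly, stood at -0.25. Without SGC707 C, where UNC13A was lowest, it stood at -0.03. Parts of the RAB3B transcript recur in many other genes, so its counts are uncertain as well.

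All 3 tested genes of endocytosis and of other presynaptic functions had negative values (median -0.48). DNM1 (chr9:128191655-128255248, plus strand), the neuronal dynamin that cuts vesicles from the membrane, had 80.2, 79.6 and 65.9 normalised CPM in the DMSO libraries and 58.0, 59.0 and 44.7 in the SGC707 libraries. The groups did not overlap, and library C was again the lowest of each. Its log2 fold change was -0.48 (SE 0.17, 95% interval -0.87 to -0.09, edgeR adjusted p = 0.313).

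GAP43 (chr3:115623324-115721490, plus strand), a membrane protein of growth cones, had 48.7, 53.4 and 48.2 normalised CPM in the DMSO libraries and 34.1, 34.3 and 48.4 in the SGC707 libraries. SGC707 C lay inside the DMSO range and A and B well below it. On the log2 scale it stood at -0.37 (SE 0.18, edgeR adjusted p = 0.461), and without SGC707 C it was -0.56 with an adjusted p of 0.0336. SNCB, or beta-synuclein, was scarce, from 0.234 to 1.95 normalised CPM, and stood at -0.67 with an interval from -1.999 to 0.65 (-0.24 without SGC707 C).

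**Figure D3:**
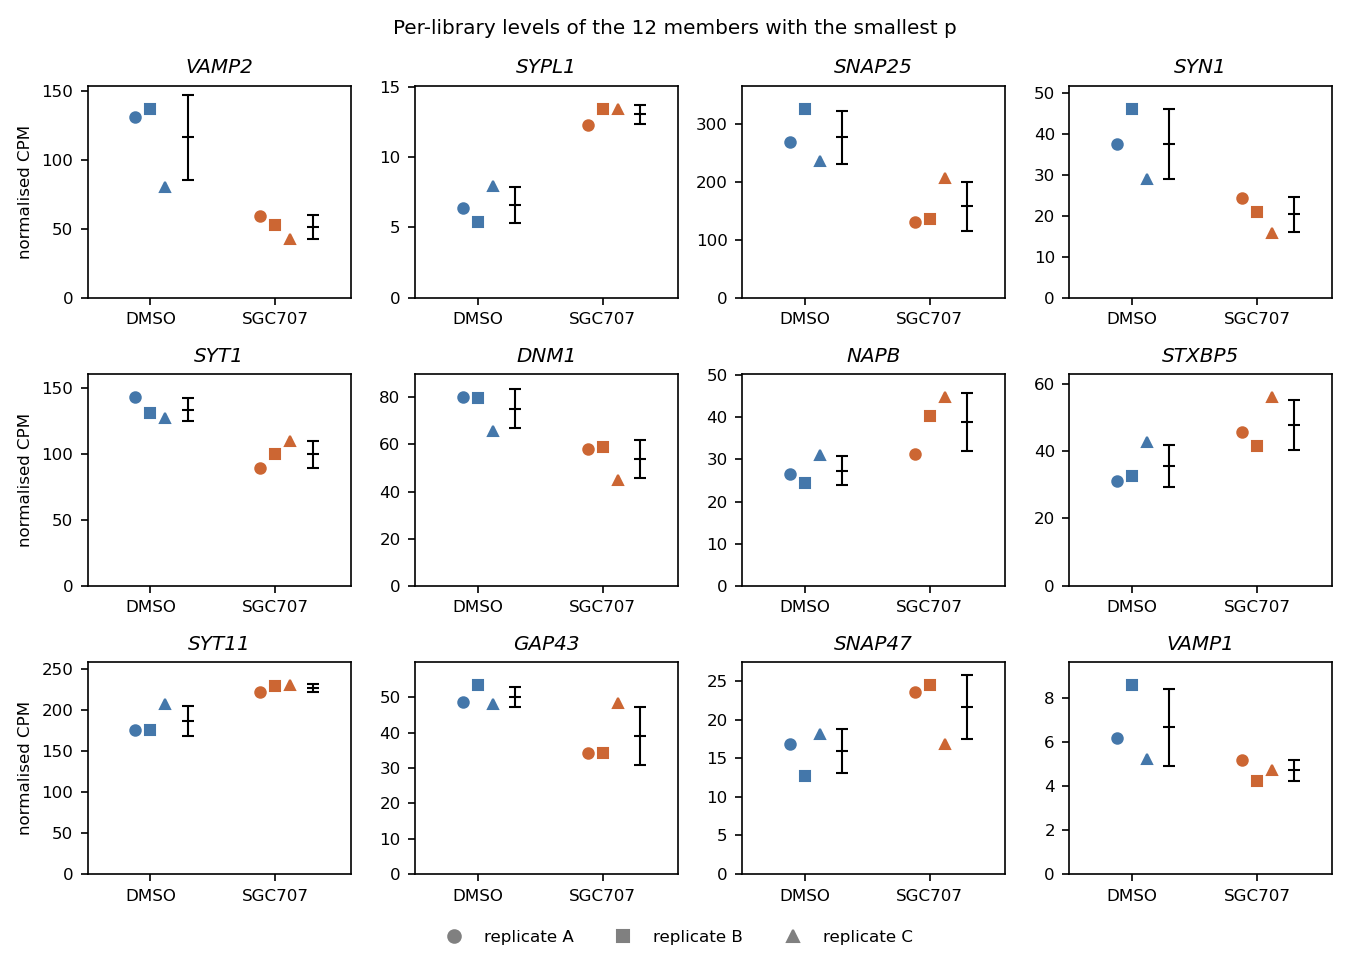
Normalised CPM in each library for the 12 members with the smallest edgeR p, 1 panel a gene with an axis from 0, points for libraries A, B and C of each group. VAMP2 and SYPL1 have the values farthest from 0 on the log2 scale, and the SGC707 C point of SNAP25, GAP43 and SNAP47 lies apart from A and B towards the DMSO points.

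Grouped by where the genes are known to be used, the 24 tested members of mainly neuronal or neuroendocrine use had 9 positive and 15 negative values with a median of -0.32, and the 12 found in most cell types had 6 and 6 with a median of -0.03. Of the neuronal genes, 1 was higher and 5 lower at an unadjusted p under 0.05, and of the widely used genes 1 and 0, where 5.62% and 7.13% of all tested genes were. The SGC707 libraries were separate upwards in 1 and downwards in 9 of the neuronal genes, and in 4 and 0 of the widely used genes, where 10.8% and 9.78% of all tested genes were. The 2 groups also differ in base composition, with a median transcript GC content of 54.0% for the neuronal genes and 45.2% for the others. The split, like the members, was chosen with earlier results of these data known, and the difference between the 2 groups was not tested.

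Pairs of relatives were also set side by side as ratios of levels per kilobase, as a description with no test. The ratio of VAMP2 to VAMP3 was 4.56, 5.48 and 2.45 in the DMSO libraries and 1.77, 1.596 and 1.11 in the SGC707 libraries. The ratio of SNAP25 to SNAP23 was 52.7, 84.2 and 40.5, then 33.4, 35.2 and 39.1. For NAPB to NAPA it was 0.416, 0.515 and 0.539, then 0.591, 0.853 and 1.22. In these 3 pairs the groups did not overlap, though for SNAP25 to SNAP23 DMSO C and SGC707 C nearly touched. The neuronal gene had the smaller share in the SGC707 libraries for VAMP2 and SNAP25 and the larger share for NAPB. SNAP23 had only 52 to 89 counts a library, and 1394 of its exon bases overlap AC018362.1 on the opposite strand. Transcript GC content was 53.4% for VAMP2 and 42.7% for VAMP3, and 41.7% for NAPB and 59.2% for NAPA. The extreme ratios of both pairs, 1.11 and 1.22, were those of SGC707 C. The ratios of SYP to SYPL1 (2.99 to 5.35 in DMSO, 1.59 to 3.64 in SGC707) and of STX1A to STX4 (1.97 to 2.89, then 1.75 to 2.06) overlapped.

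The position of SGC707 C followed the GC content of the members' transcripts. Across the 36 tested members, the log2 ratio of SGC707 C to the mean of SGC707 A and B correlated with GC content at Pearson's r = -0.80 and Spearman's rho = -0.79, a description across genes of the same 3 libraries. Over all 12117 tested nuclear genes the coefficients were -0.74 and -0.77, so the members followed the whole table. The same ratio was taken for DMSO C against the mean of DMSO A and B. Its Spearman's rho with GC content was -0.50 across the members and -0.26 across all nuclear genes. Of 18 members with at least 50% GC, 16 had SGC707 C below both other SGC707 libraries, beside 4496 of 5515 genes. Of the 18 members with less GC, 1 did so, VAMP7, beside 985 of 6602 genes. The exceptions among the GC-rich members were VAMP1 and SYT7. The log2 fold change itself correlated with GC content at Spearman's rho = -0.34 across the members and -0.12 across all nuclear genes, with medians of -0.31 in the GC-rich members and -0.10 in the others, beside -0.02 and 0.06 in all genes. Of the 12 named members, SYN1 (62.0% GC), DNM1 (60.5%), VAMP2 (53.4%) and VAMP1 (53.3%) were GC-rich with negative values. GAP43 (47.6%), SNAP25 (42.9%) and SYT1 (41.6%) were GC-poor and also negative. The positive ones were SNAP47 (53.9%), SYT11 (46.3%), NAPB (41.7%), SYPL1 (37.6%) and STXBP5 (35.8%). The part of GC content in these values was not tested. In the fit with GC and length offsets 0 members passed. The values of VAMP2 (-1.23, edgeR adjusted p = 0.0554), SNAP25 (-0.92, 0.0584) and SYPL1 (0.91, 0.0667) were about as large as without offsets. Those of the GC-rich SYN1 and DNM1 were smaller in size, at -0.72 against -0.88 and -0.32 against -0.48. Lower p-values were general to this fit: 24% of all tested genes had an unadjusted p under 0.05, against 12.75% without offsets.

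**Figure D4:**
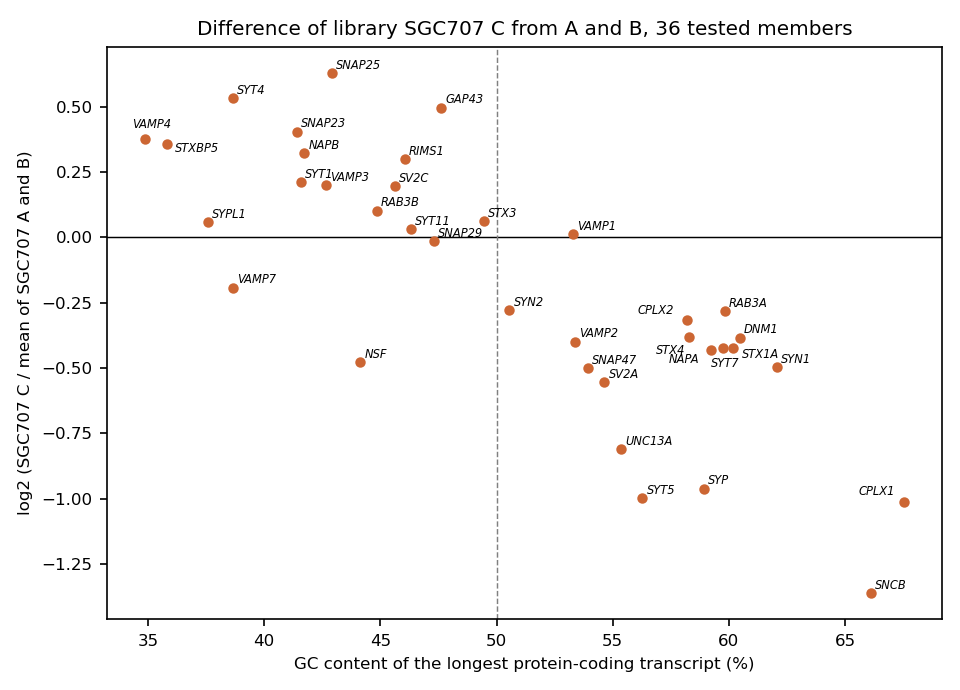
For each of the 36 tested members, the log2 ratio of SGC707 C to the mean of SGC707 A and B against the GC content of its longest protein-coding transcript, with a dashed line at 50% GC. Most GC-poor members lie above 0 and nearly all GC-rich members below it, SNCB lowest.

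The wider machinery of vesicle fusion and recycling was read from 137 further genes, of which 105 were tested: other SNAREs and their regulators, other synaptotagmins, vesicle transporters, active zone proteins and endocytic proteins. None passed the test, 53 had positive and 52 negative values, and the median was 0.00. At an unadjusted p under 0.05, 4 were higher and 5 lower, together 8.57% of the list beside 12.8% of all tested genes. The libraries did not overlap for 8 upwards and 10 downwards, together 17.1% beside 20.6%. Both shares lay below those of all genes.

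Of the genes named from this list, CLTB, a clathrin light chain, stood at -0.73 (edgeR adjusted p = 0.287) and SYT17, a synaptotagmin-like protein, at -0.64 (0.297), both with separate groups. On the positive side, DNAJC5, the vesicle chaperone cysteine string protein, stood at 0.66 (0.309) and ATP6V1B2, a subunit of the proton pump that acidifies vesicles, at 0.46 (0.311). RIMS4, a short RIM protein, stood at 0.98 (0.295). Its SGC707 A and B libraries had 54.0 and 46.1 normalised CPM and its SGC707 C library 22.4, within the DMSO range of 17.2 to 24.1. Without SGC707 C, RIMS4 stood at 1.27 and DNAJC5 at 0.86, both with an adjusted p of 0.0272 in edgeR. By role, the medians ran from -0.19 over 13 synaptotagmins and other calcium sensors and -0.14 over 24 endocytic proteins to 0.09 over 21 other SNAREs.

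Whether a member passed depended on the test and on the libraries used. Of the 17 alternative fits, 4 called members. DESeq2 called SYPL1 higher (adjusted p = 0.0168) and VAMP2 (0.00106), SYN1 (0.0408) and SNAP25 (0.0469) lower, where it called 0.426% of all genes higher and 2.04% lower. The edgeR fit without SGC707 C called SV2A and SYPL1 higher and GAP43, SYT1 and SNAP25 lower, where it called 3.73% and 5.53% of all genes. A limma-voom fit that gives each library a weight called SYT11, NAPB, SV2A, SYP, SNAP47 and SYPL1 higher and SYN1, GAP43, VAMP2, RIMS1, SYT1, DNM1 and SNAP25 lower, where it called 12.9% and 15.3%. SNAP25 and SYPL1 passed in all 3 of these fits, in the direction of the fit on all libraries. The fits reuse the same libraries, so they are not separate evidence.

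The fourth scaled libraries by their total counts alone, mitochondrial counts included. It moved the median of all genes to 0.69 and that of the members to 0.45, and it called 9 members higher, SYPL1, NAPB, STXBP5, SYT11, SV2A, SV2C, CPLX2, VAMP3 and RAB3A, where it called 21.1% of all genes higher. Under this scaling VAMP2, SNAP25 and SYN1 stayed negative at -0.45, -0.15 and -0.15, whereas SYT1, DNM1, GAP43 and VAMP1 were positive. In the other 16 fits all 12 named members had the sign of the fit on all libraries, as did 29 of the 36 tested members.

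**Figure D5:**
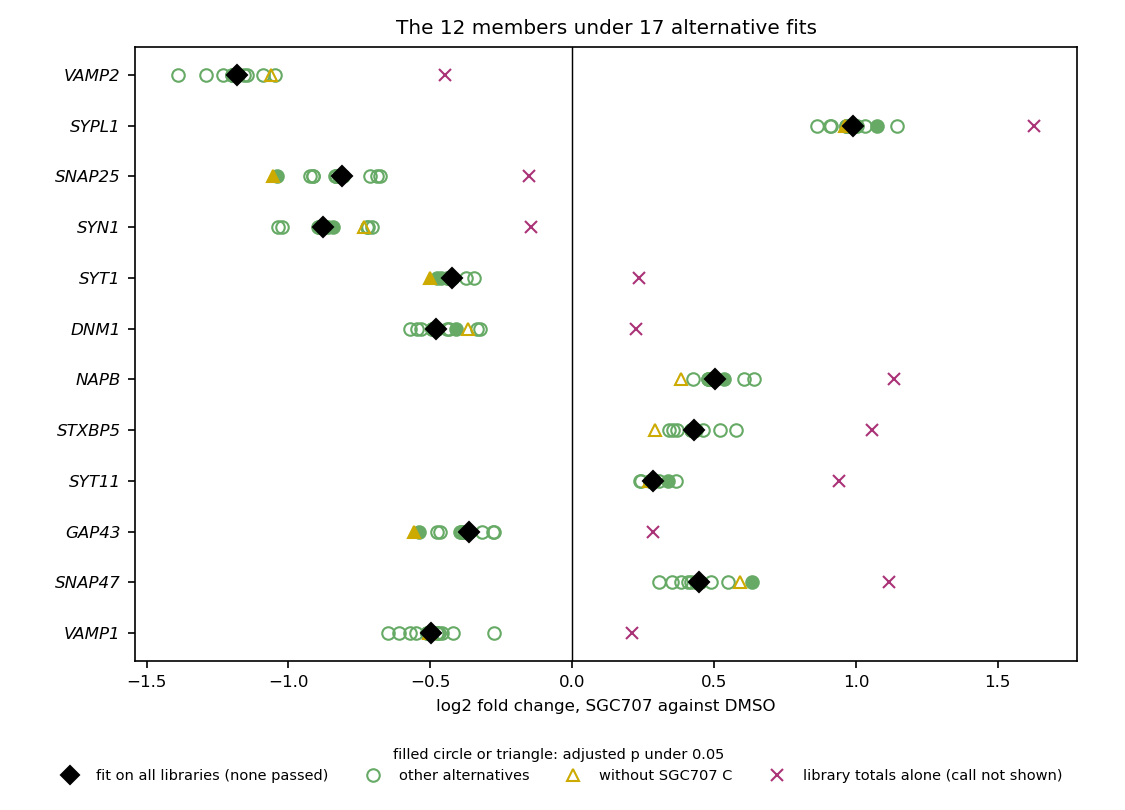
Log2 fold change of the 12 members with the smallest edgeR p under the fit on all libraries (diamonds) and 17 alternatives, with filled circles and triangles where the adjusted p is under 0.05 (crosses, for library totals alone, do not show it). Apart from the crosses, every point of a member lies on the same side of 0.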

How the data were processed

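RNA was sequenced as paired-end mRNA libraries from 6 SH-SY5Y samples, and the authors deposited raw read counts per gene. HISAT2, StringTie and GRCh38 are named in the submitters' processing notes; their settings are not stated in the sources used here. From the deposited counts, 12196 genes that passed filterByExpr were scaled by TMM and tested with edgeR 4.0.16 (quasi-likelihood test, robust, R 4.3.3), with Benjamini-Hochberg adjustment over all of them and a threshold of 0.05. Standard errors were taken from the fold change and its F value. Normalised CPM uses the TMM factors, and levels between genes were divided by transcript length (GENCODE 29, matched by symbol or synonym, 220 table rows unmatched). Full values are given for the 12 tested members with the smallest p. Of the other vesicle genes, the rule names the 6 with the smallest p and a mean of at least 5 normalised CPM; 1 of these is not reported here. Motifs were searched in RefSeq promoters. Alternatives used other scalings and filters, DESeq2 1.42.0, limma 3.58.1, offsets, a block and the omission of each library. The replicates of each group differed by more than sampling noise. The members and lists were chosen with earlier results of these data known. The scripts were tested on simulated data.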

Additional observations from a re-analysis of the deposited data

How the results depend on the processing

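The count of members called, 0 higher and 0 lower on all libraries, became 9 higher with library totals alone, 1 higher and 3 lower with DESeq2, 6 and 7 with library weights, 2 and 5 at an unadjusted p under 0.05, and 0 to 2 higher and 0 to 3 lower when 1 library was left out, where each count above 0 came without SGC707 C. It was 0 in both directions in the other fits. Over all genes, 1 was called higher and 2 lower. These became 2568 and 31 with library totals alone, 52 and 249 with DESeq2, 1576 and 1861 with library weights, 9 and 52 with GC and length offsets, and 685 and 870 at an unadjusted p under 0.05. Limma-voom called 0 higher, no filter 5 lower, and an adjusted p under 0.01 left 0 and 0. Leaving out 1 library gave 0 to 462 higher and 0 to 685 lower, the top of each without SGC707 C. Of the further vesicle genes, 20 were called higher with library totals alone, 11 higher and 12 lower with library weights, 1 lower with DESeq2, 4 higher and 5 lower at an unadjusted p under 0.05, and 0 to 3 higher and 0 to 2 lower when 1 library was left out. The cause was not tested in any of these.

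The members' median log2 fold change was 0.45 with library totals alone, -0.15 with a stricter filter, which drops 3 scarce members, -0.11 with library weights and -0.21 to -0.054 when 1 library was left out. Library totals turned 18 negative members positive: SNAP29 (0.42), SNAP23 (0.44), STX1A (0.38), STX3 (0.46), VAMP1 (0.21), VAMP4 (0.48), CPLX1 (0.22), NAPA (0.38), NSF (0.31), SYT1 (0.24), SYT5 (0.31), SYN2 (0.38), RAB3B (0.63), RIMS1 (0.29), UNC13A (0.44), DNM1 (0.22), SNCB (0.070) and GAP43 (0.28). The other changes of sign were in members near 0 or with a wide spread. NSF was 0.50 with library weights and -0.76 to 0.39 when 1 library was left out. SYT4 was -0.0061 with limma-voom, -0.084 with library weights, -0.026 with offsets, -0.018 with offsets and the replicate block, and -0.19 to 0.17 with 1 library left out. SV2C was -0.0030 with library weights and -0.044 to 0.085 with 1 left out. RAB3B was 8.7e-04 with offsets and -0.10 to 0.056 with 1 left out. With 1 left out, STX3 ran from -0.44 to 0.061, STX4 from -0.042 to 0.21 and SYT7 from -0.20 to 0.88.

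The letters A to C were not shown to pair the libraries: deviations of same-lettered libraries from their group means correlated at 0.08 (A), -0.02 (B) and 0.10 (C). A fit with the replicate block called 0 genes higher and 0 lower over the whole table and 0 members, with a member median of -0.19. The block with GC and length offsets called 1 gene higher and 1 lower. DMSO A correlated best with SGC707 B, not with its own letter.

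Depth limits the scarce members: SYN3 and AMPH could not be tested, and VAMP1, SNCB, STX3 and RIMS1 rest on few counts. SYPL1 had only 55 to 88 counts in the DMSO libraries. Overlapping exons limit SNAP47, STX1A, SNAP23 and NAPA, among others, whose transcripts share bases with genes on the opposite strand. They also limit VAMP2, SYN1 and NAPA, among others, which share 430, 297 and 752 exon bases with a gene model on the same strand. With 3 libraries a group and SGC707 C apart from A and B, the absence of calls does not show that the members' levels were equal.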
